A study of Canis lupus familiaris with 8 samples.

Results

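Naive CD8 T cells were taken here as the blood T cells that carried CD8A together with CCR7 and LEF1 and lacked CD4, GZMB and GZMK. Droplet-based 5′ single-cell RNA sequencing gave counts of unique molecular identifiers (UMIs, each standing for 1 captured transcript) for sorted T cells of 4 dogs. Members were selected on measured counts of 6 genes: a cell was a member with at least 1 UMI each of CD8A, CCR7 and LEF1 and 0 UMIs of CD4, GZMB and GZMK. In all, 380 of 31909 cells were members, with 83, 120, 144 and 33 from dogs 1 to 4. They were compared with 2 populations of the same dogs. The 6047 remaining CD8A+ CD4- cells are called other CD8 cells, and the 4204 CD4+ CD8A- cells with CCR7 and LEF1 are called naive CD4 cells. The name naive CD4 stands for this rule only. No condition on GZMB or GZMK was set for the CD4 cells.

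All dogs were healthy Beagles with routine vaccinations, of no stated genotype, and no experimental treatment was described. Their ages were 5 years for dog 1, the only female, 7 years for dogs 2 and 3 and 9 years for dog 4, all of which were male. Viable T cells had been sorted from blood with an antibody against the αβ T cell receptor, frozen, and thawed together for a single run, with 1 transcriptome and 1 receptor library per dog. Each dog was 1 replicate, so n = 4 throughout, and age and sex cannot be told apart from the individual dog. The sums of member UMIs were 350582, 589654, 634034 and 166977 in dogs 1 to 4, so dog 4 gave the least precise values. Kept cell barcodes shared between 2 libraries numbered 81 to 113 per pair of dogs, and 0 of them were members in both.

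A naive CD8 T cell has left the thymus and has not yet met its antigen. It moves between blood and lymph nodes with the help of the chemokine receptor CCR7. The transcription factors LEF1 and TCF7 maintain this resting state, and contact with antigen leads to clonal division and to cytotoxic cells that carry granzymes and perforin. Because each αβ T cell carries its own rearranged TRA and TRB chains, cells that share both chains are counted as a clone.

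The 6 genes of the rule are described without a test. In UMIs scaled to a total of 1e6 per sum (CPM), members held 684 ± 94.2 CD8A (mean ± SD, n = 4 dogs), against 1527 ± 123 in other CD8 cells. CCR7 was at 441 ± 52.0 CPM and LEF1 at 698 ± 126 CPM in members, against 25.9 ± 13.8 and 89.5 ± 21.0 in other CD8 cells. GZMB and GZMK, both granzymes, were at 0 in members by rule and at 1489 ± 257 and 738 ± 229 CPM in other CD8 cells. The thresholds were low. CCR7 rested on a single UMI in 181 members and LEF1 in 88. Of the other CD8 cells, 380 failed the rule by CCR7 alone, 82 by LEF1 alone, 57 by GZMK alone and 12 by GZMB alone.

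Cells on both sides of the threshold differed in degree. TCF7 was at 413 ± 32.5 CPM in members with 1 CCR7 UMI, at 441 ± 18.6 in members with more, and at 428 ± 41.1 in the cells that lacked CCR7 alone. The chemokine gene CCL5 was at 208 ± 302 CPM in members with 1 CCR7 UMI and at 741 ± 555 in the cells that lacked CCR7 alone. For the cells that lacked LEF1 alone, TCF7 was at 458 ± 170 and CCL5 at 823 ± 577 CPM. TCF7 thus stood at like levels on both sides while mean CCL5 was higher outside, with a wide spread between dogs.

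TCF7 is a further naive marker, which the rule did not use. Its comparison with other CD8 cells is still not independent of the rule, since 77.6% of those cells carried GZMB or GZMK. As given above, TCF7 was at like levels in cells that failed by CCR7 or LEF1 alone. It therefore does not settle whether members are naive. TCF7 stood at 422, 453, 429 and 419 CPM in members of dogs 1 to 4 and at 207, 219, 147 and 195 CPM in other CD8 cells. Every member value lay above every value of other CD8 cells, and TCF7 was higher by 1.33 ± 0.10 on the log2 scale (± SE, edgeR quasi-likelihood test, adjusted p = 1.12e-10). In naive CD4 cells TCF7 was at 485, 483, 512 and 433 CPM, and the difference of -0.07 ± 0.08 did not pass the test (edgeR, adjusted p = 0.733).

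Markers of other cell types were looked up in the same sums. Of 8 B cell markers, CD79B, PAX5, BANK1 and CD22 had 0 UMIs in members and MS4A1 had 4, yet CD79A alone was listed at 11490 ± 738 CPM against 9634 ± 666 in other CD8 cells and 10435 ± 561 in naive CD4 cells. CD79A, the 1 B cell marker tested against other CD8 cells, passed the test as higher in members, by 0.38 on the log2 scale and without overlap. Against naive CD4 cells 1 of 2 tested B cell markers was higher in members. The summed markers of monocytes and granulocytes came to 616, 962, 1301 and 1875 CPM in dogs 1 to 4, of which nearly all was S100A8 (1187 ± 537, lower than the 1659 ± 495 in other CD8 cells by 0.42 on the log2 scale, edgeR, adjusted p = 0.00351), while CSF1R, AIF1, CSF3R and S100A12 had 0 UMIs. The same sum in other CD8 cells was 923, 1979, 1916 and 1819 CPM, so dog 4 went the other way. S100A8 overlapped between the 2 populations. Natural killer cell markers summed to 9.31 ± 7.34 CPM in members and 247 ± 77.4 in other CD8 cells, with NCR3 the most abundant. Platelet and erythroid markers came to 2.53 ± 4.08 CPM and γδ T cell markers to 1.82 ± 2.69 CPM. What S100A8 and CD79A reads in T cell libraries stand for was not tested.

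The share of CD8A single-positive cells that met the rule differed widely between dogs. It was 12% in dog 1 (95% exact Clopper-Pearson interval 9.68 to 14.7), 8.41% in dog 2 (7.02 to 9.97), 6.32% in dog 3 (5.35 to 7.39) and 1.63% in dog 4 (1.12 to 2.28). The mean was 7.09% ± 4.34. The intervals of dogs 1 and 2 overlapped, as did those of dogs 2 and 3, while that of dog 4, the oldest animal, lay below all others. Naive CD4 cells made up 41.1%, 32.8%, 35.1% and 17.1% of CD4 single-positive cells in dogs 1 to 4, so dog 1 was highest and dog 4 lowest in both lineages. The order depends on the denominator, since dog 1 had 691 CD8A single-positive cells against 1427, 2280 and 2029 in dogs 2 to 4. As a share of all kept cells, members made up 1.17%, 1.42%, 1.78% and 0.40% in dogs 1 to 4, which puts dog 3 highest and dog 4 again lowest. These intervals cover counting error, and no test between dogs was possible with 1 sample of each.

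**Figure D1:**
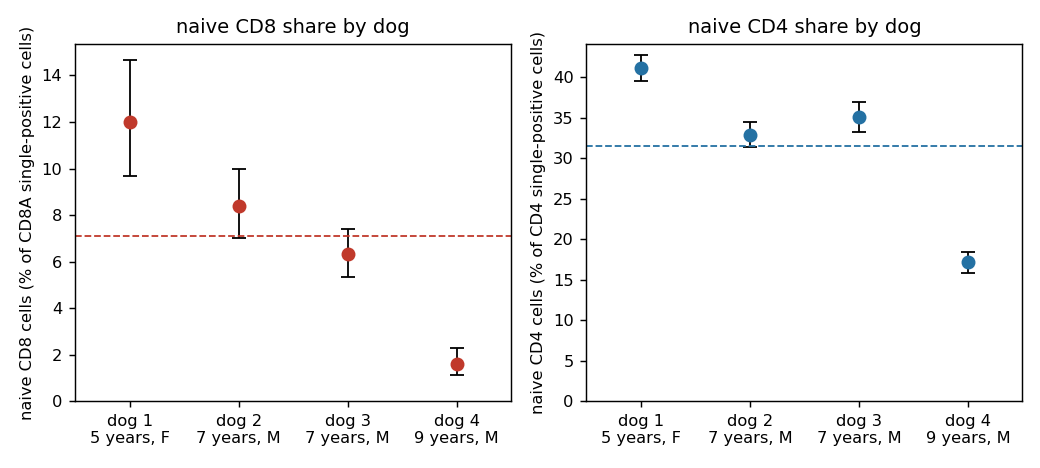
Share of naive CD8 cells among CD8A single-positive cells (left) and of naive CD4 cells among CD4 single-positive cells (right) in each dog, in percent. Points are single dogs with 95% exact intervals and the dashed line is the mean of 4 dogs. Dog 4, at 1.63% and 17.1%, is the lowest in both panels.

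The rule depends on single UMIs, so the share moved with depth and with the genes required. When CCR7 or LEF1 sufficed, it was 15.3% ± 7.05. When each cell was thinned to 2000 UMIs it was 3.1% ± 1.94, against 7.62% ± 4.57 in the same depth range without thinning. Dog 1 stayed highest and dog 4 lowest among CD8A single-positive cells under each of these definitions. Median UMIs per cell were 4007, 4340, 4123 and 4712 in members of dogs 1 to 4 and 3903, 3880, 3535 and 3646 in other CD8 cells.

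Against other CD8 cells, members were higher in most tested genes of the naive and quiescence list and lower in most of the cytotoxic list. Neither direction is independent of the rule. With UMIs summed per dog and population, 660 of 7833 genes were higher (8.43% of those tested) and 796 were lower (10.2%) at an adjusted p under 0.05, which is 18.6% in either direction. For 21.9% of tested genes the 4 values of members did not overlap with the 4 of other CD8 cells, which is the background to each gene below said to be without overlap. The fit was edgeR's quasi-likelihood test with the dog as a block and Benjamini-Hochberg adjustment over all genes. Without the scaling between libraries by TMM (a trimmed mean of log ratios), the split was 450 higher to 1249 lower, as the median over all genes then shifted by -0.14 on the log2 scale.

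Among 20 genes of the naive and quiescence list in the gene table, 18 passed the filter on low counts, and 14 of these were higher, 1 was lower and 3 did not pass the test. The median log2 difference of the list was 0.76, against -0.0014 over all genes tested. This count is a description, since the rule required CCR7 and LEF1, both naive markers, and removed cells with GZMB or GZMK. ACTN1, a crosslinker of actin, was at 126, 181, 150 and 144 CPM in dogs 1 to 4 against 25.8, 42.5, 16.7 and 25.8 in other CD8 cells, without overlap. BACH2, a repressor of effector programmes, and ID3, an inhibitor of E proteins, were higher by 2.90 and 2.08 on the log2 scale (edgeR, adjusted p = 4.21e-06 and 2.55e-09). SATB1, a chromatin organiser, was higher by 1.37 and TXNIP, a brake on glucose uptake, by 1.22. KLF3 was the lower one, by -0.62 (edgeR, adjusted p = 0.000212), and S1PR1, the receptor for leaving lymph nodes, did not pass the test at 126 ± 45.5 against 149 ± 9.40 CPM.

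Outside the lists, the 12 named genes with the largest rise were RFLNB, ZSCAN18, APP, GCNT4, RGS10, CTPS1, GNMT, OBSL1, TLE4, PSEN2, TSPAN5 and CSTA, with log2 differences from 3.85 down to 2.84. For each of them the 4 values of members lay above the 4 values of other CD8 cells. RGS10, a regulator that shortens G protein signals, stood at 505, 478, 426 and 305 CPM in dogs 1 to 4 against 65.4, 46.5, 46.1 and 19.7 (log2 difference 3.43 ± 0.12, edgeR, adjusted p = 1.38e-17). It was detected in 70.0% ± 14.4 of members and 10.1% ± 3.11 of other CD8 cells. APP encodes the amyloid precursor protein and PSEN2 a subunit of the protease that cuts it. APP was at 42.8, 28.8, 55.2 and 41.9 CPM against 6.05, 2.53, 3.31 and 3.93, and PSEN2 at 144 ± 52.2 against 21.8 ± 5.08. CTPS1, which makes CTP for nucleic acid synthesis, was at 104 ± 23.3 against 13.3 ± 5.89 CPM, and the corepressor TLE4, which binds TCF and LEF factors, at 52.6 ± 9.35 against 7.24 ± 2.16.

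The cytotoxic list had 12 genes in the table, of which 11 were tested, and 9 were lower, 0 higher and 2, TNF and LAMP1, did not pass the test (list median -3.19). Since the rule removed cells with GZMB or GZMK, and these genes occur together with other cytotoxic genes, this direction is not independent of the rule, and genes near 0 in members passed the filter on low counts through other CD8 cells. Granzyme A (GZMA) had 5.70, 0, 3.15 and 0 CPM in members of dogs 1 to 4 against 226, 178, 189 and 387. The chemokine CCL4 was at 8.56, 5.09, 23.7 and 24 CPM against 737, 875, 838 and 1429. Perforin (PRF1), which opens the target cell membrane, rested on 5 UMIs in all members and was at 5.28 ± 8.59 against 164 ± 49.3 CPM. Members and other CD8 cells did not overlap in any of the 3 genes.

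In the killer and innate-like receptor list, 12 of 14 genes in the table were tested and these 12 were lower (list median -4.13). This count is a description, since the rule removed cells with GZMB or GZMK and genes near 0 in members passed the filter on low counts through other CD8 cells. Against naive CD4 cells 6 of the same 14 genes were tested, of which 1 was higher, 1 was lower and 4 did not pass the test. Both calls were lost without the dog as a block. The higher one was also lost in cells of 3000 to 6000 UMIs and in cells with 1 TRA and 1 TRB. KLRD1, a partner of NKG2 receptors, stood at 8.56, 13.6, 6.31 and 0 CPM in members against 491, 523, 729 and 650 in other CD8 cells, without overlap. KLRB1 was at 3.17 ± 2.33 against 282 ± 157 CPM and the activating receptor NCR3 at 5.24 ± 2.85 against 231 ± 79.9. FCER1G, a signalling adaptor of innate cells, was at 15.5 ± 15.1 against 373 ± 110 CPM. KLRK1, which encodes the receptor NKG2D, was at 52.3 ± 41.4 against 351 ± 50 CPM.

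Several further genes were close to 0 in members, where a fitted fold has no firm size. IFITM10 had 0 UMIs in members and 1381 in other CD8 cells, which makes it at least 33.3-fold lower when 3 counts over all members are taken as the limit. ITGAM, the α chain of the integrin Mac-1, had 1 UMI in members and 4561 in other CD8 cells, a 330-fold difference with a counting interval of 59.3 to 13043. CX3CR1, the fractalkine receptor of cytotoxic memory cells, had 1 UMI and was 75.8-fold lower (13.6 to 2994), and S1PR5, an egress receptor, had 1 UMI and was 52.1-fold lower (9.34 to 2056). IL12RB2, a chain of the interleukin-12 receptor, had 3 UMIs, with 12 CPM in dog 4, and was 76.8-fold lower by UMIs pooled over dogs (26.3 to 373). By the means of the 4 dogs IL12RB2 was 37.7-fold lower.

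Of 13 effector transcription factors, 8 were lower, 0 higher and 5 did not pass the test. This count too is a description, because the rule removed cells with GZMB or GZMK and the factors near 0 in members passed the filter through other CD8 cells. TBX21, the T-bet gene, was at 0, 1.70, 3.15 and 18.0 CPM in members against 110, 124, 194 and 194 in other CD8 cells. EOMES was at 2.74 ± 1.99 against 58.2 ± 7.62 CPM, and ZEB2 had 2 UMIs in all members, a 57.5-fold difference (15.9 to 474). HOPX was at 633 ± 49.2 against 982 ± 26.6 CPM, and TOX and IKZF3 did not pass the test. TBX21, EOMES and ZEB2 were thus near 0 in members, while HOPX was lower but still abundant.

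Surface and signalling genes moved in both directions. In the list of adhesion, homing and activation, 16 of 22 tested genes were lower, 2 were higher and 4 did not pass the test. The lower ones included ITGB2 and ITGAL, both chains of LFA-1, CD44, VIM and AHNAK, with VIM at 1436 ± 544 against 2631 ± 379 CPM. The higher ones were CD69, a marker of activation and tissue retention, at 299 ± 59.9 against 243 ± 30.4 CPM with dog 4 the other way, and ITGAE, the αE integrin chain. ITGAE stood at 157, 159, 185 and 144 CPM in members against 117, 89.3, 66.4 and 95.8, without overlap (log2 difference 1.05 ± 0.14, edgeR, adjusted p = 3.32e-06). CTLA4, an inhibitory receptor, was at 71.3, 129, 132 and 174 CPM against 23, 42.5, 38.7 and 26 (log2 difference 2.0 ± 0.16, edgeR, adjusted p = 7.68e-10), whereas PDCD1 had 2 UMIs in all members and was at 26.2 ± 8.38 CPM in other CD8 cells.

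Of 10 tested cytokine receptor genes, IL21R, TGFBR2 and IL6ST were higher, IL2RB, IL12RB1, IL12RB2 and IFNGR1 lower, and 3 did not pass the test. IL12RB2, with 3 UMIs in all members, passed the filter on low counts through other CD8 cells, so its direction is a description. IL2RB, the chain shared by the receptors of interleukins 2 and 15, was at 166 ± 33.9 against 817 ± 90.8 CPM. In the list of receptor signalling, 2 of 19 genes were higher, CD5 among them, 7 were lower (ZAP70, LCP2, FYN, CD7, PTPN22, DUSP2 and TRAT1), and the CD3 genes, LCK and PTPRC did not pass the test. MHC class II genes split as well. DLA-DOA, a subunit of the DO protein that restrains peptide loading, was at 65.6, 83.1, 121 and 77.9 CPM in members against 23, 18.6, 21.9 and 13.1 (log2 difference 2.35 ± 0.18, edgeR, adjusted p = 2.86e-10), while DLA-DQA1, DLA-DQB1 and DLA-DMB were lower and DLA-DRA and CD74 did not pass the test.

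Of 8 tested interferon-stimulated genes, ISG20 and MX2 were lower and 6 did not pass the test. Of 11 early response genes, FOS, FOSB, IER2, ZFP36 and NR4A1 were lower, EGR1 was higher and 5 did not pass the test. In the cell cycle list, STMN1 was higher and the proliferation marker MKI67 lower, at 10.8 ± 15.6 against 44.1 ± 10.2 CPM, and 5 did not pass the test. Of the CD4 lineage list, 7 genes were tested, with CTLA4 higher and IKZF2 lower.

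**Figure D2:**
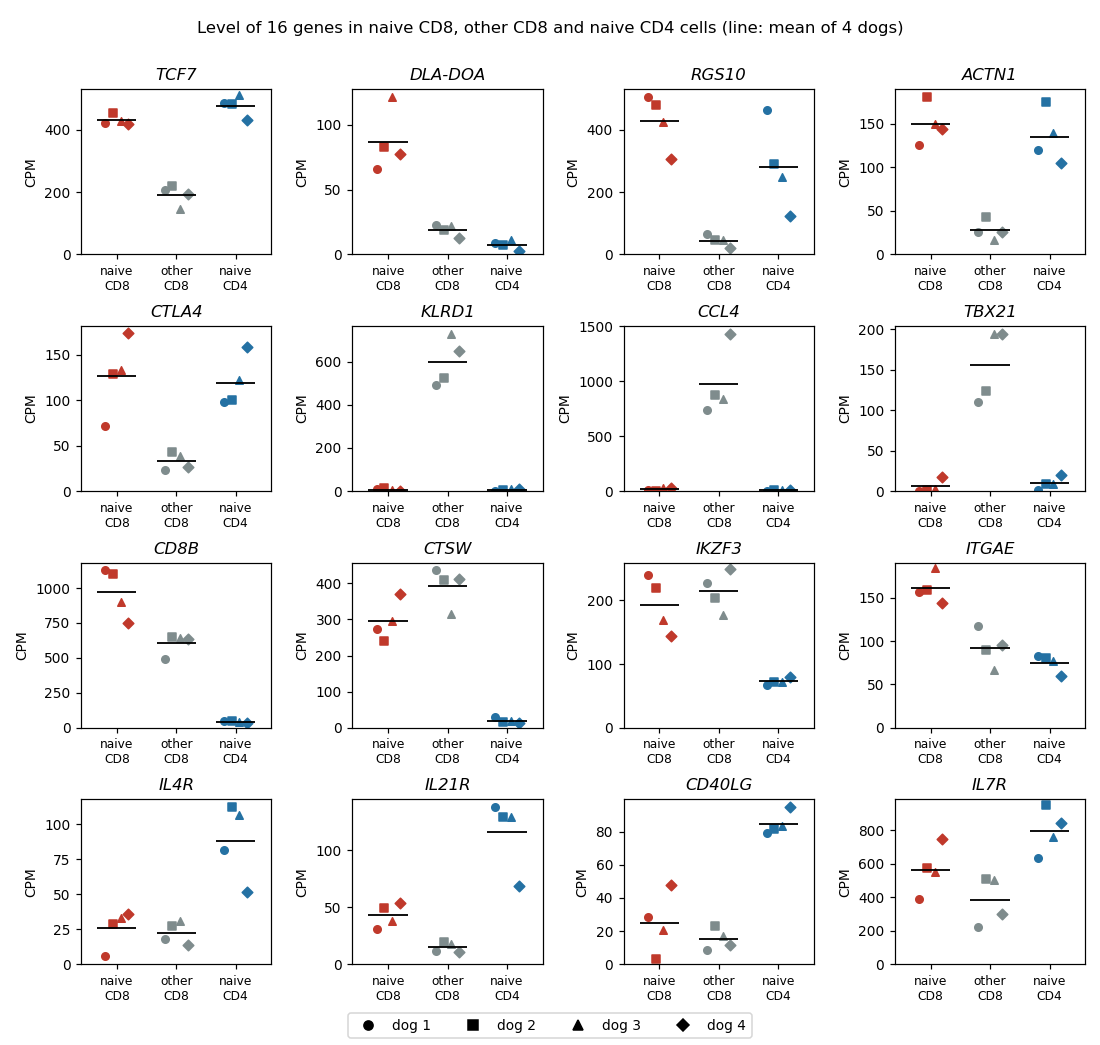
Level of 16 genes in CPM (linear axes from 0) in naive CD8, other CD8 and naive CD4 cells, with a marker for each of the 4 dogs and a line at the mean. TCF7, RGS10 and ACTN1 lie apart from other CD8 cells, CD8B, CTSW and IKZF3 lie apart from naive CD4 cells, and KLRD1, CCL4 and TBX21 lie near 0 in both naive populations.

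Against naive CD4 cells, which carry the same 2 naive markers by rule, far fewer genes differed. Of 7933 genes, 234 were higher in members (2.95% of those tested) and 191 were lower (2.41%), 5.36% in either direction, and for 7.63% the values of the 4 dogs did not overlap. Without the dog as a block these counts were 37 and 27, and without TMM they were 154 and 346. In the list of naive and quiescence genes, 2 of 18 tested were higher, TXNIP among them, 4 lower (IL7R, S1PR1, ID3 and CD28) and 12 did not pass the test. The 4 lower calls fell to 1 without dog 3, to 1 with DESeq2 and to 0 without the dog as a block, and the 2 higher ones to 0 without the block. The comparison shares the members with the one above, so the values of both are given side by side and are not independent. The naive CD4 cells may include cells that had met antigen. Cells in clones of 2 or more made up 0.894%, 13.0%, 4.42% and 28.8% of them in dogs 1 to 4, against 1.79%, 0%, 0% and 16.7% of members. The part of such cells in the differences below was not tested.

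The largest difference lay in the coreceptor. CD8B, which encodes the β chain that pairs with CD8A (ENSCAFG00000007461), was at 1127, 1101, 902 and 749 CPM in dogs 1 to 4 against 45.5, 47.7, 38.6 and 36.9 in naive CD4 cells (log2 difference 4.62 ± 0.08, edgeR, adjusted p = 4.02e-47). It was detected in 86.0% ± 7.05 of members and 16% ± 1.85 of naive CD4 cells, a population without CD8A UMIs by rule, and what the UMIs there stand for was not tested. CD8B was also higher than in other CD8 cells, which had 492, 648, 643 and 634 CPM (log2 difference 0.82 ± 0.11, edgeR, adjusted p = 2.12e-06), although CD8A had its higher mean there. Of the CD8 lineage list, CTSW, the lymphocyte cathepsin W, and CRTAM were higher than in naive CD4 cells too, and RUNX3 did not pass the test. The rule required CD8A in members and excluded it in naive CD4 cells, so the direction of this list is not independent of the rule. CTSW was at 274, 241, 295 and 371 CPM against 29.5, 17.0, 19.5 and 12.9, without overlap, and at 392.4 ± 53.2 CPM in other CD8 cells.

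Other genes that were higher than in naive CD4 cells were DLA-DOA, CCL5, UCHL1, APP, GCNA, SNTB1, GNMT, OBSL1, RGS3 and STRBP, with log2 differences from 3.52 to 1.59. For CCL5, 10 cells held 87.0% of the UMIs of members, and its call was lost in cells of 3000 to 6000 UMIs, where the log2 difference was 0.77 against 3.41 in all cells (edgeR, adjusted p = 0.377). DLA-DOA was at 8.81, 7.30, 11.3 and 2.95 CPM in naive CD4 cells of dogs 1 to 4, below every member value given above. APP was at 5.90 ± 3.20 and GNMT, a glycine methyltransferase, at 12.7 ± 5.08 CPM, against 42.2 ± 10.8 and 41.5 ± 17.3 in members, and both genes were higher in members in each comparison. IKZF3, the Aiolos gene, was at 240, 219, 169 and 144 CPM in members and at 66.9, 71.9, 71.6 and 80.1 in naive CD4 cells (log2 difference 1.56 ± 0.12, edgeR, adjusted p = 6.88e-16). ITGAE was at 75.2 ± 10.4 CPM in naive CD4 cells (log2 difference 1.18 ± 0.11, edgeR, adjusted p = 4.68e-12), and IL2RB was higher in members by 1.17 (edgeR, adjusted p = 2.34e-10).

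The 12 named genes lower than in naive CD4 cells were SELENOP, IL12RB2, SAMHD1, CD40LG, IL6R, MXI1, ZC3H12D, IL4R, IL18R1, GPR183, IL21R and TNFSF13B, with fitted log2 differences from -3.40 for SELENOP, which encodes a selenium transport protein, to -1.45. IL12RB2, IL6R, IL4R, IL18R1 and IL21R among them encode chains of cytokine receptors. SELENOP rested on 4 UMIs in all members and IL12RB2 on 3, against 489 and 325 UMIs in naive CD4 cells. Both passed the filter on low counts through naive CD4 cells, so their direction is a description and their fitted folds have no firm size. IL12RB2 also overlapped between the populations, at 0, 1.70, 0 and 12 CPM in dogs 1 to 4 against 1.60, 18.7, 8.01 and 67.6. IL4R was at 5.70, 28.8, 33.1 and 35.9 CPM in members of dogs 1 to 4 against 81.3, 112, 107 and 51.7 (log2 difference -1.80 ± 0.20, edgeR, adjusted p = 5.23e-10). IL21R was at 31.4, 49.2, 37.9 and 53.9 CPM against 138, 129, 129 and 68.7, and IL6R at 9.66 ± 6.47 against 34.9 ± 4.99. None of these 3 receptor genes overlapped between the populations, and 6 of 12 tested cytokine receptor genes were lower in all, with IL2RB the higher one. IL21R lay between the other populations, since it was at 15.1 ± 4.28 CPM in other CD8 cells.

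CD40LG, the helper ligand for CD40, was at 28.5, 3.39, 20.5 and 47.9 CPM in members and at 79.4, 81.4, 83.1 and 94.9 in naive CD4 cells. ZBTB7B, the factor that directs thymocytes to the CD4 lineage, rested on 5 UMIs in members and was at 3.45 ± 1.85 against 17.5 ± 1.82 CPM. Together with GATA3 and ICOS, 4 of 11 genes of the CD4 lineage list were lower, 0 higher and 7 did not pass the test. This count is a description, since the rule set CD4 to 0 in members and required it in naive CD4 cells. ZBTB7B, near 0 in members, passed the filter on low counts through naive CD4 cells. In the adhesion list, CD44, CXCR3, SELPLG, ANXA1, ANXA2, VIM and AHNAK were lower and CD69, ITGB7 and ITGAE higher, out of 19 tested. The effector factors PRDM1, BHLHE40 and RUNX1 were lower and HOPX and IKZF3 higher, out of 9 tested. In the signalling list CD7, PTPN22 and DUSP2 were higher and FYN, CD6 and TRAT1 lower, out of 19. The early response genes FOS, JUNB and ZFP36 were lower, out of 11, and of the MHC class II list DLA-DOA alone was higher, out of 6. In the lists of interferon-stimulated genes (8 tested) and exhaustion (1 tested, CTLA4) no gene passed edgeR's test, and STMN1 was the higher one of 5 cell cycle genes.

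Genes of ribosomal proteins took 28.2%, 27.8%, 27.7% and 24.6% of the UMIs of members in dogs 1 to 4, against 22.2%, 20.3%, 21.7% and 20.2% in other CD8 cells and 26.8%, 24.8%, 25.5% and 23.3% in naive CD4 cells. Members had the highest share within each dog, and they did not overlap with other CD8 cells. Of 58 tested genes, 54 were higher than in other CD8 cells and 1, RPL22L1, was lower, with 51 higher when TMM was left out. Against naive CD4 cells 39 were higher and 0 lower, but this count fell to 8 without dog 2, to 5 without dog 3, to 11 without the filter on low counts and to 0 without the dog as a block. The mitochondrial share of members was also the highest within each dog, with medians of 2.49%, 2.61%, 3.22% and 2.20% against 2.03%, 2.17%, 2.29% and 1.96% in other CD8 cells and 2.13%, 2.25%, 2.53% and 1.47% in naive CD4 cells, and its part in these results was not tested.

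Members were not uniform. Over 24 cytotoxic and killer receptor genes, 262 of 380 members had no UMI of any, 71 had UMIs of 1 gene and 28 had UMIs of at least 3. Among other CD8 cells 4.18% had none and 87.8% had at least 3, and among naive CD4 cells 59.2% had none and 8.11% had at least 3. Members without any made up 75.9%, 68.3%, 70.1% and 48.5% in dogs 1 to 4. CCL5, at 416, 131, 31.5 and 299 CPM in members against 10.1, 15.9, 25.8 and 25.1 in naive CD4 cells, was carried by few cells. It had 293 UMIs in members and was detected in 34 of them. KLRK1 was detected in 25 members, and 10 of them held 70.1% of its UMIs. By contrast, CD8B was detected in 335 members and TCF7 in 292, and the 10 highest cells held 9.88% and 11.8% of the UMIs of these genes.

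Receptor sequences were joined by cell barcode, and 89.7% ± 4.26 of members had at least 1 productive chain. For cells with exactly 1 TRA and 1 TRB, a clone was defined as cells of a dog with the same V gene, J gene and junction in both chains. Cells in clones of 2 or more made up 1.79%, 0%, 0% and 16.7% of members in dogs 1 to 4, based on 56, 68, 87 and 18 cells. The counts of 0 allow shares of up to 5.28% in dog 2 and 4.15% in dog 3, as upper ends of exact 95% intervals. In other CD8 cells these shares were 58.5%, 59.9%, 77.2% and 74.9%, above all members, and in naive CD4 cells they were 0.894%, 13.0%, 4.42% and 28.8%. The mean difference was -63.0 ± 9.55 percentage points from other CD8 cells, lower in 4 of 4 dogs (exact sign-flip permutation test, two-sided p = 0.13, the smallest that 4 dogs allow). From naive CD4 cells it was -7.17 ± 6.62 points, lower in 3 of 4 dogs (exact sign-flip permutation test, two-sided p = 0.25). The largest clone touched by a member had 5, 1, 1 and 6 cells in dogs 1 to 4, against 36, 53, 125 and 79 for other CD8 cells and 2, 21, 78 and 79 for naive CD4 cells.

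**Figure D3:**
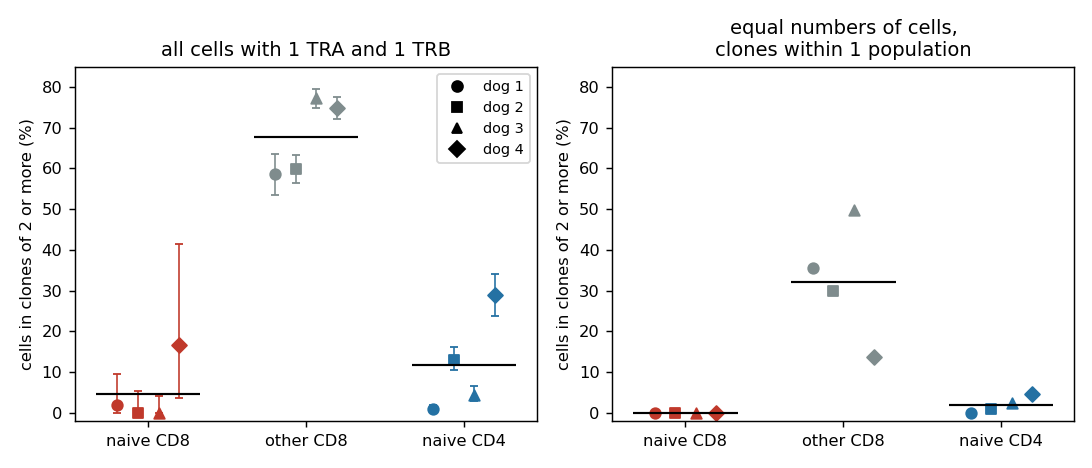
Percent of cells in clones of 2 or more cells in naive CD8, other CD8 and naive CD4 cells, over all cells with 1 TRA and 1 TRB (left, with 95% exact intervals) and after drawing equal numbers of cells from each population of a dog (right), where a clone is counted within the drawn cells of 1 population, so that partners in other populations no longer count. Each marker is a dog and the line is the mean, which is 4.61%, 67.7% and 11.8% on the left and 0%, 32.2% and 1.93% on the right.

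By this definition 4 members belonged to an expanded clone, 1 in dog 1 and 3 in dog 4, and their junctions are printed to show them. With clones defined by TRB alone, 1, 2, 3 and 3 members did in dogs 1 to 4. Sequences run 5′ to 3′ from the codon of the conserved cysteine to that of the closing residue. The clone of dog 1 had 5 cells, the other 4 of them among other CD8 cells. The TRAV43-1 clone of dog 4 had 6 cells, of which 5 fell outside the compared populations. The TRAV9-5 clone of dog 4 had 4 cells, 3 of them other CD8 cells, and the TRAV9-11 clone had 2 cells.
Dog 1, TRAV9-8 with TRAJ15: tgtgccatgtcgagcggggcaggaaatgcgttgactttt
Dog 1, TRBV1 with TRBJ2-1: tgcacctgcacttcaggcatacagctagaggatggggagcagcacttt
Dog 4, TRAV43-1 with TRAJ5: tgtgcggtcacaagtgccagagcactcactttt
Dog 4, TRBV1 with TRBJ1-2: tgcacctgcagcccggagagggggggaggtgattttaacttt
Dog 4, TRAV9-5 with TRAJ34: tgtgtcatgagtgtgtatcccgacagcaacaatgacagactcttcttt
Dog 4, TRBV18 with TRBJ1-5: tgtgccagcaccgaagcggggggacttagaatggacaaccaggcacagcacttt
Dog 4, TRAV9-11 with TRAJ31: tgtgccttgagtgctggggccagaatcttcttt
Dog 4, TRBV29 with TRBJ2-5: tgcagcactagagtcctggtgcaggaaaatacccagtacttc

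A few V and J genes differed in their share of receptor chains between members and the other populations. Against other CD8 cells, 4 of 36 tested V and J genes (11.1%) were lower and 0 were higher (edgeR on cells per gene, adjusted over all 4 gene classes, with 6 genes at an unadjusted p under 0.05). The fit scaled cell counts by TMM within each gene class. Its log2 differences are therefore not the ratios of the shares printed beside them, and can be larger or smaller. TRAV9-11 was carried by 10.6%, 7.59%, 8.08% and 4.76% of TRA chains of members in dogs 1 to 4 and by 42.6%, 27.0%, 25.7% and 23.5% of those of other CD8 cells, without overlap (log2 difference -2.48 ± 0.24, edgeR, adjusted p = 4.82e-10). TRAJ28 was at 9.09%, 1.27%, 1.01% and 4.76% against 41.6%, 24.2%, 22.0% and 10.5% (log2 difference -3.55 ± 0.82, edgeR, adjusted p = 0.0257). TRBV28 and TRBV25 were lower as well, at 2.11% ± 2.23 against 9.40% ± 3.31 and at 6.56% ± 3.50 against 11.9% ± 5.33, the latter with overlapping dogs. When each clone was counted once, TRAV9-11 was the 1 gene still called. The log2 difference was then -0.91 for TRAJ28 and -0.36 for TRBV25 (edgeR, adjusted p = 0.811 and 0.766), and TRBV28 was not tested. TRAJ28 also lost its call without dog 2 or dog 3, TRBV28 without dog 1 or dog 3, and TRBV25 without dog 1, dog 3 or dog 4. How many V and J genes were without overlap in all was not counted, here or against naive CD4 cells. TRAJ41 and TRAJ42, which had too few cells for the test, were higher in members and also without overlap. Genes of the TRAV9 family resemble one another, so the assignment within the family is uncertain.

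The study of these same 4 dogs reported TRAV9-11 joined to TRAJ28 in cells that resemble mucosal-associated invariant T cells. Those are an innate-like population whose TRA chain hardly varies. The pairing was thus known from these data, and its shares here are no independent check. The pairing was found in 1 member, in dog 1, which is 1.52% of the TRA chains there, and in 0 members of dogs 2 to 4. In other CD8 cells it made up 34.9%, 18.4%, 15.8% and 7.96% of TRA chains in dogs 1 to 4, and in naive CD4 cells 0.157% ± 0.132. The mean difference from other CD8 cells was -18.9 ± 10.7 percentage points, lower in 4 of 4 dogs (exact sign-flip permutation test, two-sided p = 0.13, the smallest possible). The 3 junctions of this kind shared by 3 dogs with most other CD8 cells are set beside that of the member, to show that the 4 differ only in a short stretch around the join of V and J. All have 16 residues, and capitals mark the 7 bases from the first to the last at which the 4 sequences differ.
Other CD8, 36 cells: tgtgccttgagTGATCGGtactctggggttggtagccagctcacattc
Other CD8, 25 cells: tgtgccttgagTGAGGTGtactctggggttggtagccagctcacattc
Other CD8, 15 cells: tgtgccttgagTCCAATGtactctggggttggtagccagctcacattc
Naive CD8, 1 cell: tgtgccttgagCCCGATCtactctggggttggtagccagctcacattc

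Against naive CD4 cells, 2 of 34 tested genes (5.88%) were higher and 0 were lower (edgeR, 9 genes at an unadjusted p under 0.05). TRBV1 was carried by 20.3%, 22.1%, 16.5% and 16% of TRB chains of members in dogs 1 to 4 and by 6.50%, 5.92%, 6.06% and 8.98% in naive CD4 cells, without overlap (log2 difference 1.58 ± 0.34, edgeR, adjusted p = 0.00202). TRAV24 was at 15.2%, 11.4%, 7.07% and 14.3% against 3.22%, 2.27%, 2.81% and 1.58%, also without overlap (log2 difference 2.10 ± 0.43, edgeR, adjusted p = 0.0210). Neither gene passed the test without dog 2, which left log2 differences of 1.19 for TRBV1 and 2.0 for TRAV24. In other CD8 cells TRBV1 was at 11.3% ± 3.96 and TRAV24 at 8.42% ± 5.48, and neither passed the test against members. TRBV16, less used in members than TRBV1 (18.7%) and TRBV7 (12.7%), was at 11.6% ± 4.60 in members and 20.6% ± 2.33 in naive CD4 cells, lower in 4 of 4 dogs, but did not pass the test (edgeR, adjusted p = 0.137).

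**Figure D4:**
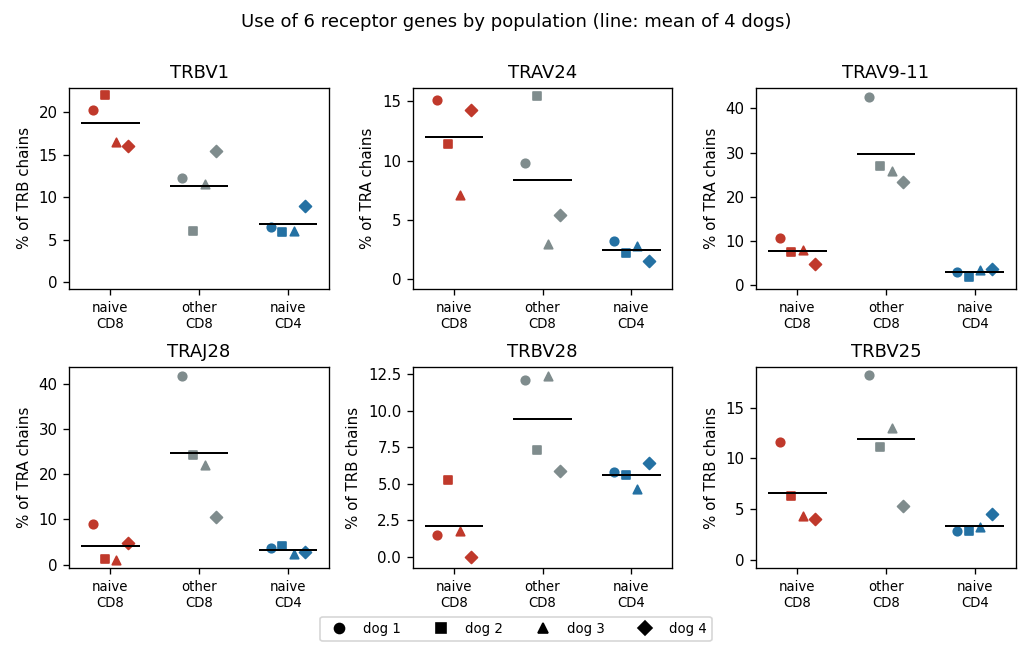
Percent of TRA or TRB chains that carry 6 receptor genes in naive CD8, other CD8 and naive CD4 cells, counted over cells with a single chain of the locus. Each marker is a dog and the line is the mean of 4 dogs. TRBV1 and TRAV24 of naive CD8 cells lie above naive CD4 cells, and TRAV9-11, TRAJ28 and TRBV28 lie below other CD8 cells on average.

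The TRB junction, the part that contacts the antigen peptide most closely, was longer in members than in naive CD4 cells. It had a mean of 15.0, 14.8, 15.2 and 15.2 residues in dogs 1 to 4 against 14.4, 14.3, 14.4 and 14.5, without overlap. The difference was 0.659 ± 0.115 residues, higher in 4 of 4 dogs (exact sign-flip permutation test, two-sided p = 0.13, the smallest possible). Junctions of 16 or more residues made up 36.2%, 34.7%, 36.5% and 40.0% in members and 20%, 18.2%, 20.1% and 22.9% in naive CD4 cells. Leaving out TRBV1 gave a difference of 0.768 residues, and counting each clone once gave 0.661. The length comparison itself and both alternatives were chosen after seeing the data. Each alternative kept the direction in 4 of 4 dogs.

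Against other CD8 cells the TRB junction differed by 0.275 ± 0.314 residues, longer in 3 of 4 dogs (exact sign-flip permutation test, two-sided p = 0.25), which is within the spread between dogs. The TRA junction was shorter than in other CD8 cells, with means of 13.1, 13.5, 13.8 and 13.4 residues in dogs 1 to 4 against 14.6, 14.1, 14.5 and 13.9, without overlap (difference -0.827 ± 0.431, exact sign-flip permutation test, two-sided p = 0.13, the smallest possible). The length comparisons with other CD8 cells were chosen after seeing the data, as was leaving out cells that used TRAV9-11. Without those cells the TRA difference was -0.424 ± 0.251 residues and shorter in 4 of 4 dogs. From naive CD4 cells the TRA junction differed by -0.0374 ± 0.262 residues, with 2 dogs on each side. A second TRA chain was found in 1.27%, 7.41%, 5.47% and 0% of members with a receptor, against 7.23% ± 0.689 in naive CD4 cells, which is 16 members in all and too few for a firm share.

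**Figure D5:**
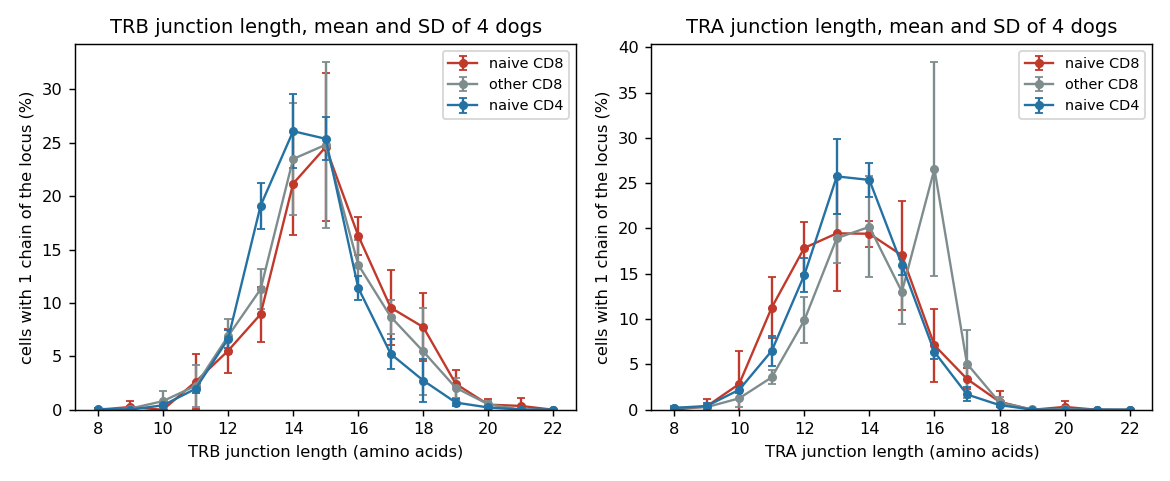
Distribution of TRB (left) and TRA (right) junction lengths in residues, in percent of cells with a single chain of the locus, for naive CD8, other CD8 and naive CD4 cells. Points are means of 4 dogs and bars are SD. The TRB curve of naive CD8 cells is shifted to longer junctions than that of naive CD4 cells (means 15.1 and 14.4), and other CD8 cells have an additional TRA peak at 16 residues.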

How the data were processed

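Transcriptomes and αβ T cell receptor chains were measured in sorted blood T cells of 4 Beagles, 1 library of each kind per dog. Gene expression was deposited as UMI counts without normalization, for barcodes that the authors had called as cells with Cell Ranger 5.0.1 on CanFam 3.1. For the receptors, the authors deposited counts of UMIs and reads per assembled productive rearrangement with V gene, J gene and junction. Which V and J reference served for this was not given in the sources used here. The 4 transcriptome libraries held 26904346, 35661623, 32637367 and 32773374 UMIs. As the gene list of dog 1 (27980 lines) was longer than its matrix (20257 genes), the list of dog 2 named the genes of all dogs, and 138 genes listed by identifier alone took the symbol that the list of dog 1 gives for the same identifier, CD8B among them. Positions on the genome are not given, since no annotation of that build was used here.

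Cells were kept between 500 and 20000 UMIs if 13 mitochondrial genes took no more than 10% of these, 7096, 8454, 8109 and 8250 in dogs 1 to 4. No doublet caller was run, since the study excluded doublets while sorting by flow cytometry only. Members and lists were chosen with earlier results of these data known. UMIs were summed per dog and population and tested with edgeR 4.0.16 (quasi-likelihood, TMM, filterByExpr, dog as block, Benjamini-Hochberg over all genes) in R 4.3.3, with DESeq2 1.42.0 as an alternative. CPM are UMIs scaled to a sum of 1e6, and log2 differences are members minus the compared population. The 6 genes of the rule stayed in the fit and were not counted. A change was called at an adjusted p under 0.05. Fewer transcripts per cell and fewer cells with transcripts cannot be told apart in such sums.

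Genes named outside the lists were the 12 with the largest log2 difference in each direction among called genes with the same direction in 4 of 4 dogs, at least 20 CPM in the higher population and a symbol, without T cell receptor genes. From each list the most abundant members were named first. Other named list members were picked after their values were seen. Cells per V or J gene were tested in the same way, including TMM, within TRAV, TRAJ, TRBV and TRBJ. Shares per dog were compared by an exact sign-flip permutation test. The dog pairs the sums by design, and deviations of the same dog correlated at 0.120 to 0.260 against other CD8 cells and at 0.170 to 0.275 against naive CD4 cells. On simulated counts, the fit called 77.1% of 2-fold and 95.9% of 4-fold changes against other CD8 cells (7667 genes), and 69.8% and 95.7% against naive CD4 cells (7712 genes). Alternatives changed the test, scaling, filter, depth range, receptor requirement and gate, and left out each dog. Intervals cover counting error only. A few items that these steps cover are not reported here.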

Additional observations from a re-analysis of the deposited data

Results flagged for a closer look

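Among values of naive CD8 cells, those below had 1 dog far from the other 3 by Dixon's criterion, which chance meets in about 1 in 20 groups of 4. PSEN2 was at 65.9 CPM in dog 4 against 168 to 172 CPM in the other dogs. RGS3 was at 50.5 CPM in dog 3 against 35.6 to 37.1. IL12RB2 was at 12 CPM in dog 4 against 0 to 1.70. For ITGAM and CX3CR1 the value was 1.58 CPM in dog 3, for ZEB2 3.39 CPM and for S1PR5 1.70 CPM in dog 2, each against 0 in the other dogs, which amounts to 1 or 2 UMIs. The share of members in expanded clones was 16.7% in dog 4 against 0 to 1.79%, resting on 3 of 18 cells. The share of TRAV9-11 with TRAJ28 among TRA chains of members was 1.52% in dog 1 against 0, which is a single cell. For this share and for ITGAM, CX3CR1, ZEB2 and S1PR5, the other 3 dogs were at 0, so any count met the criterion. The rate of 1 in 20 does not apply to them.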

How the results depend on the processing

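The number of genes called against other CD8 cells was 1456, and 966 with DESeq2. Leaving out 1 dog gave 1069 to 1427. Against naive CD4 cells it was 425. Without the replicate block (the dog as a term that pairs both populations) it was 64, all of them among the 425, and with DESeq2 it was 235. Leaving out 1 dog gave 207 (without dog 3) to 438 (without dog 4), and 218 without dog 2, so dogs 2 and 3 carried many of these calls. Without a filter on low counts, the calls against naive CD4 cells were 164 higher and 255 lower. The share of naive CD8 cells among CD8A single-positive cells moved beyond its SD where CCR7 or LEF1 sufficed (15.3%). Leaving out 1 dog gave 5.45% to 8.91%. The difference in expanded clones from other CD8 cells was -32.2 points when equal numbers of cells were drawn and clones were counted within each population, both changed together, and -65.1 to -58.3 points without 1 dog.

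V and J genes called against other CD8 cells numbered 4, and 1 with each clone counted once. Leaving out 1 dog gave 1 (without dog 3) to 4. Against naive CD4 cells they numbered 2. They were 7 without the replicate block and 6 without a filter, and leaving out 1 dog gave 0 (without dog 2) to 5 (without dogs 3 or 4). TRBV25 was lost under 7 alternatives, TRAJ28 under 3 and TRBV28 under 2. With each clone counted once, TRAJ genes could not be fitted against naive CD4 cells. Of 1929 values under alternatives, for 150 pairs of a named gene and a comparison, 1818 kept direction and side of the threshold, 71 lost and 40 gained the call, and 0 reversed. The cause of these shifts was not tested, other than that fewer samples entered the fits that left out a dog.

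The 380 members limit precision most in dog 4, where 33 cells gave 166977 UMIs and 3 counts correspond to 18.0 CPM.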
